A study of Canis lupus familiaris with 37 samples.

Results

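The comparison described here set a canine T-cell lymphoma line, OSW, against a canine B-cell lymphoma line, CLBL-1, and its derivative CLBL-1M. Its members are the 14 samples whose titles carry these names, 4 of OSW, 5 of CLBL-1 and 5 of CLBL-1M, out of 37 samples in the series. OSW comes from a T-cell lymphoma and CLBL-1 from a diffuse large B-cell lymphoma of the dog, and CLBL-1M was grown from a tumour that CLBL-1 had formed in a mouse. The lines were cultured, and no treatment and no engineered allele is named for any group. The other 23 samples are control lymph nodes, primary lymphomas and the lines CL-1 (T-cell derived) and GL-1 (B-cell derived), and they serve only as a description below. The 10 CLBL-1 and CLBL-1M samples were taken as 1 group, called CLBL, because for all 10 samples the title gives 1 of these 2 line names and the data's own name the other. Each side is thus in essence 1 line, nothing states that samples came from separate cultures, and the p-values measure only the spread between samples of these lines.

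B cells and T cells arise from a shared lymphoid progenitor and recognize antigen through different receptors. B cells carry an immunoglobulin receptor coupled to a kinase cascade and present peptides to T cells on major histocompatibility complex (MHC) class II molecules. T cells carry a T-cell receptor, are shaped by a stepwise differentiation programme in the thymus, and in the dog mature T cells can also bear class II. The extracellular matrix (ECM) is the protein scaffold outside cells, and basement membranes are its thin sheets, which lymphocytes touch through adhesion receptors. In RNA from a whole culture, fewer cells that express a gene and less RNA per cell cannot be told apart.

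Gene counts summed to 2810510 to 3152847 in the OSW samples and to 1980761 to 3414487 in the CLBL samples, so that 3 counts in a single sample correspond to 0.879 to 1.51 CPM (counts scaled to library size). Across all 12756 genes tested, log2 CPM values of OSW samples correlated with each other at 0.96 to 0.98 (6 pairs), those of CLBL samples at 0.96 to 0.99 (45 pairs), and those of OSW with CLBL samples at 0.60 to 0.65 (40 pairs). CLBL-1M replicate 2 and CLBL-1 replicates 1 and 3 stood apart from the other 7 CLBL samples, with correlations of 0.98 to 0.99 among themselves. These 3 also had the lowest gene counts of the CLBL samples, at 1980761, 2474777 and 2319126, against 2684136 or more in the others. Their shares of reads assigned to no gene were the highest in CLBL, at 73.82%, 72.08% and 71.83%. The last was barely above CLBL-1M replicate 3, at 71.8%, which did not stand apart. Whether depth or library quality set them apart was not tested. Within OSW, replicates 1 and 3 and replicates 2 and 4 resembled each other more than the other pairs did. CLBL-1 replicates 1 and 3 were the closest pair, with a chi-square per degree of freedom of 1.33 where 1 would be sampling noise alone and no other pair fell below 2.67, and they were counted as separate samples. Without the 3 CLBL samples that stood apart, 1997 genes were higher in OSW and 1022 in CLBL, against 2099 and 1103 with all samples.

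The count files name genes by Ensembl identifiers only, without symbols or coordinates, and the defining markers of T and B cells were not looked up. The study describes symbols for its differentially expressed genes, but no marker was taken from there. The labels were instead checked against gene lists that the study's functional tables give by identifier. These lists hold genes that the study had called against control nodes in these same samples. Neither a list's direction nor its share of called genes is therefore independent evidence, and all tested genes are not a like background for it. Several of the lists show only the first members of a longer term. The genes named below other than the 4 with the largest differences were chosen after their values were seen.

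OSW and CLBL differed in 25.1% of the genes tested. At an adjusted p of at most 1e-05 (edgeR quasi-likelihood test, Benjamini-Hochberg), 2099 genes were higher in OSW (16.5% of those tested) and 1103 were higher in CLBL (8.65%). With a difference of at least 4-fold also required, 1504 genes were higher in OSW (11.8%) and 648 in CLBL (5.08%). The differences were larger on the OSW side, where the median called gene differed by 4.18 on the log2 scale, against 2.56 for genes higher in CLBL. Fitted differences were at least 32-fold for 938 genes higher in OSW and 301 higher in CLBL, and at least 1024-fold for 109 and 22. For genes with 0 counts in 1 group the fitted fold can exceed the fold that the counts bound. ENSCAFG00000008234 had a fitted log2 fold-change of -12.17, where the counts gave at least 797-fold. The median log2 difference of all genes tested was 0.04, and 64.8% of them lay within 2-fold.

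Called genes were selected for a difference that is large against the spread between samples, so that contrast is no separate evidence. Their median standard deviation of log2 CPM (prior count of 2) was 0.27 within OSW and 0.29 within CLBL. Their median absolute difference between the groups was 2.85. Over all genes tested the same values were 0.25, 0.29 and 0.58. The 4 OSW samples lay above all 10 CLBL samples for 3111 genes (24.4% of those tested) and below all of them for 2203 (17.3%), and 1 called gene had groups that overlapped. The genes called higher in OSW took 18.5 to 20.8% of the gene counts of each OSW sample and 3.81 to 4.03% of those of each CLBL sample. The genes called higher in CLBL took 14.6 to 17.4% of the counts in CLBL samples and 3.63 to 3.80% in OSW samples.

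**Figure D1:**
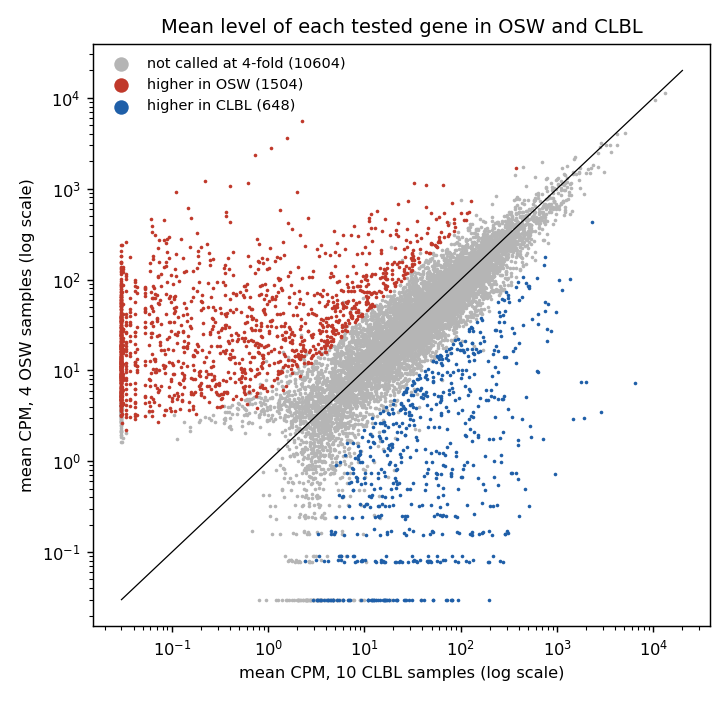
Each point is 1 of 12756 tested genes, placed by its mean CPM in the 10 CLBL samples (x axis) and in the 4 OSW samples (y axis), both on log scales with means below 0.03 drawn at 0.03. The 1504 genes higher in OSW by at least 4-fold (red) include a column at the left edge that CLBL did not express measurably, and the 648 genes higher in CLBL (blue) a row at the lower edge.

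The largest difference among genes with a mean of at least 50 CPM belonged to ENSCAFG00000001296, for which the files and the study's tables give no function. It was measured at 906, 1023, 761 and 948 CPM in OSW replicates 1 to 4. In CLBL it had 3 counts over 10 samples, between 0 and 0.410 CPM, which gives a ratio of 8686 with a 95% counting interval from 2972 to 42120 (log2 fold-change 12.59 ± 0.22 SE, adjusted p = 1.04e-18 by edgeR). The second, ENSCAFG00000002142, is listed by the study under the regulation of interferon-gamma production and under myeloid leukocyte activation. It ranged from 880 to 1524 CPM in OSW and from 0 to 1.59 CPM in CLBL (log2 fold-change 12.45 ± 0.31 SE, adjusted p = 5.99e-17 by edgeR). The lowest OSW sample lay 1855-fold above the highest CLBL sample for the first gene and 552-fold for the second.

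In the opposite direction, ENSCAFG00000008234, a member of the antigen processing and presentation list, had 0 counts in each of the 4 OSW samples. In CLBL it lay between 157 and 229 CPM with a median of 194, at least 797-fold above the level that 3 counts over the OSW group represent (0.248 CPM). ENSCAFG00000029396, with no listed function, had 1 count in OSW and ranged from 187 to 391 CPM in CLBL (median 270), a ratio of 3361 with a 95% counting interval from 603 to 132700. Neither gene overlapped between the groups (adjusted p = 5.83e-15 and 4.08e-14 by edgeR).

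The MHC class II genes were the clearest group. All 9 members of the MHC class II protein complex list were higher in CLBL, with a median log2 fold-change of -8.37, beside a background of 8.65% of all genes higher in CLBL and a median of 0.04 over all genes tested. ENSCAFG00000000803 was measured at 9.98, 5.42, 10.2 and 3.87 CPM in OSW replicates 1 to 4 and between 1596 and 2752 CPM in CLBL (median 1865). ENSCAFG00000018101 lay between 2.17 and 3.29 CPM in OSW and between 1236 and 1865 CPM in CLBL (median 1393). The lowest CLBL sample lay at least 87.8-fold above the highest OSW sample for each of the 9 genes.

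Transcripts of the class II genes were scarce in OSW but mostly not at 0. The mean level in OSW was between 0.159% and 0.764% of that in CLBL for all 9 genes, and each had from 4 to 91 counts over the 4 OSW samples. Summed over the 9 genes, OSW samples held 21.1 to 31.4 CPM and CLBL samples 7841 to 11950 CPM when all 37 samples were scaled together. The same sum was 5145 and 5299 CPM in the T-cell derived CL-1, 85.3 CPM in the B-cell derived GL-1 and 7544 to 10670 CPM in the control nodes. Class II genes are near-identical copies in part. Reads that fit more than 1 member may have been removed as poorly mapped or assigned to another member, so counts of single members are uncertain.

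The members of the MHC complex outside class II differed far less. ENSCAFG00000032222 lay between 337 and 457 CPM in OSW and between 627 and 856 CPM in CLBL (log2 fold-change -0.90 ± 0.11 SE, adjusted p = 1.02e-06 by edgeR). ENSCAFG00000000500 lay between 210 and 282 CPM in OSW and between 394 and 659 CPM in CLBL (log2 fold-change -1.12 ± 0.15 SE, adjusted p = 2.16e-06 by edgeR). Both were separated between the groups, and both missed the threshold when OSW replicate 1 or 3 was left out (adjusted p = 1.19e-05 and 1.31e-05 for the first, 2.61e-05 and 2.98e-05 for the second), as did the second without OSW replicate 2 (adjusted p = 1.68e-05). ENSCAFG00000013633 overlapped between the groups, at 446 to 786 CPM in OSW and 605 to 1673 CPM in CLBL, and was not called (adjusted p = 0.00525 by edgeR). Of the 19 tested genes listed for antigen processing and presentation, 14 were higher in CLBL and none in OSW, where also none had an unadjusted p under 0.05 and DESeq2 called none.

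**Figure D2:**
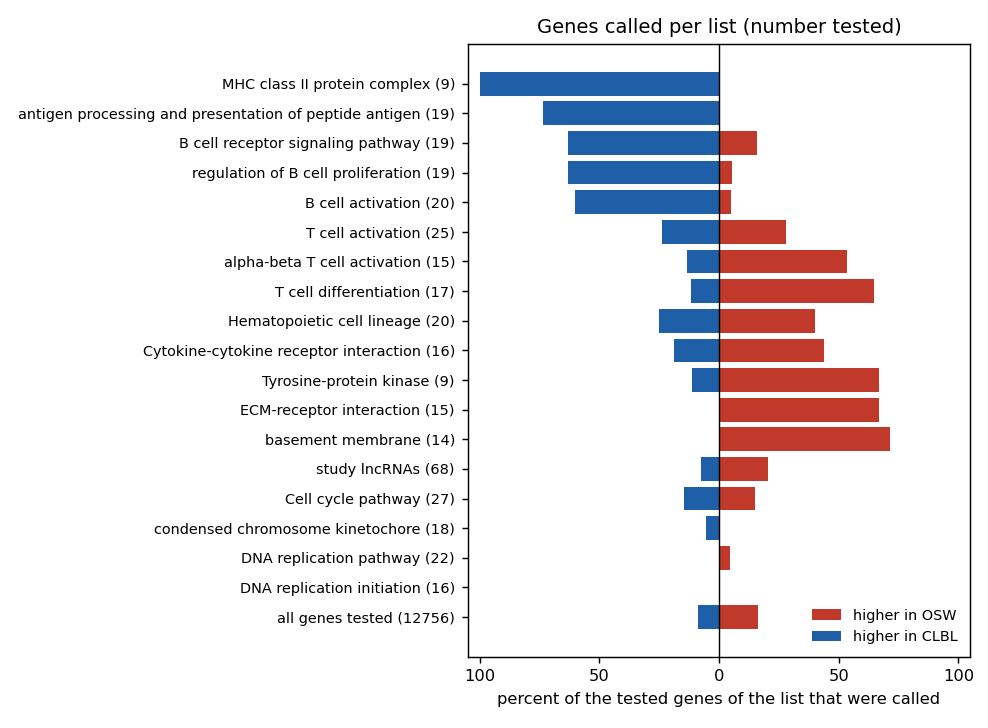
Bars give the percent of each list's tested genes (number in parentheses) called higher in OSW (red, to the right) or higher in CLBL (blue, to the left) at an adjusted p of at most 1e-05. All 9 MHC class II genes lie on the CLBL side and no ECM-receptor or basement membrane gene does, against 16.5% and 8.65% over all genes tested.

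Genes of B-cell receptor signalling, the cascade by which B cells respond to antigen, were mostly higher in CLBL. Of 19 tested members, 12 were higher in CLBL, 3 were higher in OSW and 4 were not called, with a median log2 fold-change of -2.33. Among all genes tested 8.65% were higher in CLBL and 16.5% in OSW. ENSCAFG00000007963 had 1 count in the 4 OSW samples and lay between 148 and 253 CPM in CLBL (median 222). ENSCAFG00000014463, also listed for B-cell and T-cell activation, was measured at 0.624, 1.08, 0.329 and 0.967 CPM in OSW and between 280 and 479 CPM in CLBL. Of the 20 genes listed for B-cell activation, 12 were higher in CLBL and 1 in OSW (median -3.39), and of 19 listed for the regulation of B-cell proliferation the counts were also 12 and 1 (median -3.44). The 1 gene higher in OSW became 2 in the first list without CLBL-1M replicate 2, and in the second it was lost without any 1 of CLBL-1M replicates 1, 3, 4 and 5, CLBL-1 replicates 2, 4 and 5, or OSW replicates 2, 3 and 4.

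The B-cell receptor list also held genes with the opposite difference. ENSCAFG00000015695, annotated to antigen receptor signalling in general, lay between 120 and 164 CPM in OSW and between 0.291 and 4.51 CPM in CLBL (log2 fold-change 6.15 ± 0.28 SE, adjusted p = 4.11e-13 by edgeR). ENSCAFG00000019938, shared with the T-cell activation list, lay between 164 and 223 CPM in OSW and between 53.6 and 87.8 CPM in CLBL. ENSCAFG00000002171, which the study lists for B-cell receptor signalling, PI3K-Akt signalling and type I interferon production, went the other way at 1.08 to 4.06 CPM in OSW and 430 to 730 CPM in CLBL. All 3 had groups without overlap.

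Genes of T-cell differentiation were mostly higher in OSW. Of 17 tested members, 11 were higher in OSW and 2 in CLBL, with a median log2 fold-change of 5.28. Among all genes tested 16.5% were higher in OSW and 8.65% in CLBL. ENSCAFG00000005019 was measured at 828, 1633, 852 and 1285 CPM in OSW replicates 1 to 4 and at no more than 1.32 CPM in CLBL (median 0.496, log2 fold-change 10.82 ± 0.25 SE, adjusted p = 2.11e-17 by edgeR). ENSCAFG00000016399 lay between 248 and 322 CPM in OSW and at no more than 1.64 CPM in CLBL. For the first gene OSW replicates 2 and 4 were the higher pair, and neither gene overlapped between the groups. With all 37 samples scaled together, the 20 listed genes summed to 2408 to 3680 CPM in OSW and 1033 to 2115 CPM in CLBL. CL-1 at 1543 and 1595 CPM lay below GL-1 at 2151 CPM. The B-cell lymphomas held 2012 to 3738 CPM and the intestinal and T-cell lymphomas 5416 to 7139 CPM. Both named genes were also lower in CL-1 (6.20 to 6.81 and 67.44 to 70.45 CPM) than in GL-1 (113.7 and 108.1 CPM).

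The wider T-cell activation list was divided. Of its 25 tested genes, 7 were higher in OSW, 6 were higher in CLBL and 12 were not called, with a median log2 fold-change of 0.45. The share called was 52%, beside 25.1% of all genes tested. The 6 genes higher in CLBL include the class II gene ENSCAFG00000018101 and the B-cell receptor genes ENSCAFG00000014463 and ENSCAFG00000002171 described above. Alpha-beta T-cell activation had 8 genes higher in OSW and 2 in CLBL of 15 tested (median 2.19), and 1 of those 2 is also a class II gene, ENSCAFG00000000814, at 0 to 1.87 CPM in OSW and 311 to 621 CPM in CLBL. ENSCAFG00000017565, listed for alpha-beta T-cell activation, antigen receptor signalling and tyrosine-protein kinases, was measured at 44.9, 79.1, 55.3 and 53.5 CPM in OSW and at no more than 0.620 CPM in CLBL.

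Kinases and receptors followed no single direction. Among tyrosine-protein kinases, enzymes that relay growth and antigen signals, 6 of 9 tested genes were higher in OSW and 1 in CLBL (median 5.95), and another 11 listed genes were too low in both lines to be tested. ENSCAFG00000002065, a kinase that the study also lists under hematopoietic cell lineage, was measured at 536, 446, 558 and 387 CPM in OSW and at no more than 0.531 CPM in CLBL (log2 fold-change 11.36 ± 0.24 SE, adjusted p = 8.27e-18 by edgeR). ENSCAFG00000015159 was the kinase higher in CLBL, at 295 to 563 CPM against 130 to 165 CPM in OSW. Hematopoietic cell lineage genes were called in both directions, 8 higher in OSW and 5 in CLBL of 20 tested, as were cytokine receptor interaction genes, 7 and 3 of 16. Shares called in the kinase, lineage and cytokine lists were 77.8%, 65% and 62.5%, beside 25.1% of all genes tested.

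Several lineage genes differed widely between the lines, and 3 of the 4 given here were nearly absent from 1 of them. ENSCAFG00000002147, listed for hematopoietic lineage, cytokine receptor interaction and NF-kappa B signalling, was measured at 103, 129, 107 and 146 CPM in OSW and had 0 counts in all 10 CLBL samples, at least 1158-fold above the level of 3 counts over the CLBL group (0.105 CPM). ENSCAFG00000019798 was read in both, as it lay between 1004 and 1251 CPM in OSW and between 39.5 and 115 CPM in CLBL (log2 fold-change 4.09 ± 0.18 SE, adjusted p = 2.58e-13 by edgeR). In the reverse direction ENSCAFG00000023735 lay between 276 and 898 CPM in CLBL and at no more than 0.658 CPM in OSW. ENSCAFG00000007036, which is also a cell adhesion gene, lay between 292 and 681 CPM in CLBL and at no more than 0.722 CPM in OSW.

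Most tested ECM and basement membrane genes were higher in OSW, beside 16.5% of all genes tested. Of 15 tested genes of the ECM-receptor interaction list, 10 were higher in OSW and none in CLBL, where 2 had an unadjusted p under 0.05 and DESeq2 called 1 (median log2 fold-change 5.74). Of 14 basement membrane genes, 10 were higher in OSW and none in CLBL, with the same numbers at the unadjusted p and by DESeq2 (median 5.64). The lowest log2 fold-changes, -2.74 and -6.83, belonged to genes that edgeR did not call. Genes that the lists share were counted in both. With all 37 samples scaled together and summed over the 20 listed basement membrane genes, OSW samples held 447 to 783 CPM and CLBL samples 49.3 to 74.2 CPM, with 612 and 621 CPM in CL-1 and 183 CPM in GL-1. The 20 listed ECM-receptor genes summed to 1221 to 1644 CPM in OSW and 319.8 to 743 CPM in CLBL, but CL-1 at 223 and 242 CPM lay below GL-1 at 317 CPM.

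Single members showed how far apart the lines were. ENSCAFG00000016086, a basement membrane gene, was measured at 91.4, 87.8, 92.5 and 104 CPM in OSW and had 1 count in CLBL, a ratio of 2689 with a 95% counting interval from 483 to 106200. ENSCAFG00000014616, listed for ECM-receptor interaction and the phagosome, was measured at 247, 113, 199 and 123 CPM in OSW and at no more than 0.997 CPM in CLBL. ENSCAFG00000016686 lay between 116 and 134 CPM in OSW and at a median of 0.621 CPM in CLBL, where CLBL-1 replicate 2 reached 10.1 CPM. The groups did not overlap for any of the 3, and for the second the OSW replicates 1 and 3 were the higher pair.

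**Figure D3:**
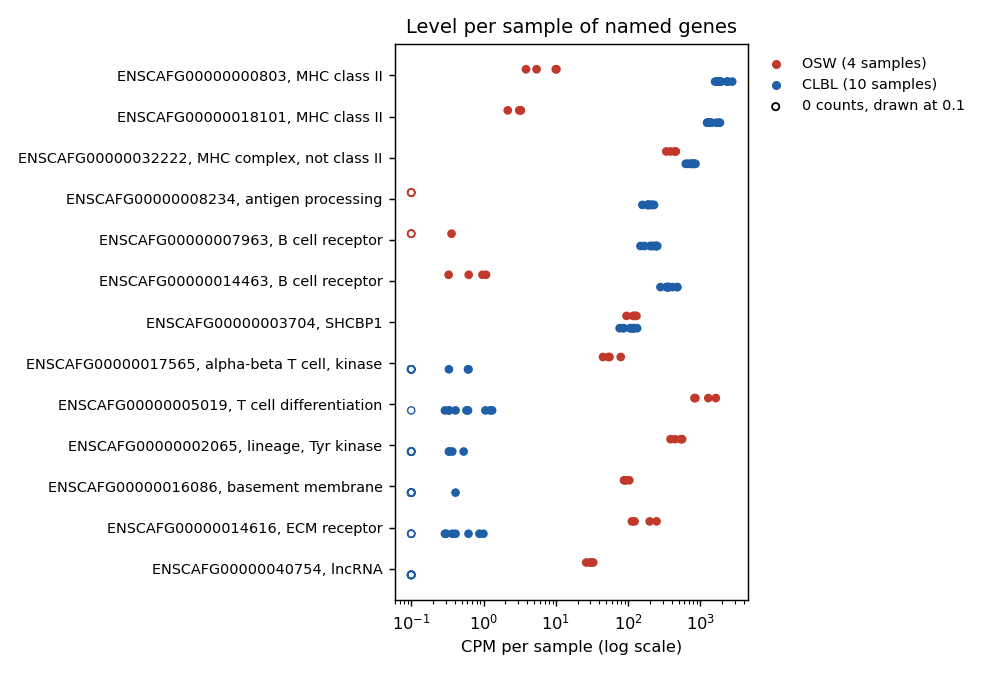
Points give the CPM of 13 genes in each of the 4 OSW (red) and 10 CLBL (blue) samples on a log axis, with samples at 0 counts drawn as open circles at 0.1 CPM. Every gene but SHCBP1 has groups that do not overlap, and the MHC complex gene outside class II, ENSCAFG00000032222, has the narrowest gap.

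Genes of DNA replication and chromosome segregation did not differ at the threshold in most cases. None of 16 DNA replication initiation genes was called by edgeR or DESeq2 at 1e-05, with a median log2 fold-change of -0.14, although 2 were higher in OSW and 5 in CLBL at an unadjusted p under 0.05. Of 18 kinetochore genes 1 was higher in CLBL (median -0.05), and of 22 DNA replication pathway genes 1 was higher in OSW (median -0.16), and 3 were higher in CLBL once the 3 CLBL samples that stood apart were left out. These counts lie below the 25.1% of all tested genes that were called in either direction, but the listed genes were selected by the study's calls. A gene that was not called may still differ, and the 16 initiation genes ranged from -1.13 to 0.55 on the log2 scale. Cell cycle pathway genes were called in 29.6% of cases, 4 in each direction of 27, and the broader G1/S list had 4 higher in OSW and 8 in CLBL of 37, falling to 5 in CLBL without OSW replicate 3.

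SHCBP1 (ENSCAFG00000003704), an adaptor protein of dividing cells, overlapped between the groups at 95.2 to 130 CPM in OSW and 76.3 to 133 CPM in CLBL (log2 fold-change 0.12 ± 0.14 SE, adjusted p = 0.485 by edgeR). FLT3 (ENSCAFG00000006716), a receptor tyrosine kinase of early blood progenitors, was at 0.312 to 2.53 CPM in OSW and at 0.293 CPM or more in CLBL (median 1.08 CPM), and was too low to be tested. Its 19 counts in OSW and 36 in CLBL show no difference that this depth could resolve. In GL-1 the same genes were measured at 0.312 CPM and 442 CPM.

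Genes tied to interferon were called in both directions. Of 16 genes listed for the positive regulation of type I interferon production, 6 were higher in CLBL and 2 in OSW (median -1.12), and the count of 2 fell to 1 without OSW replicate 1, 3 or 4. ENSCAFG00000023201 lay between 136 and 268 CPM in CLBL and between 0.658 and 2.89 CPM in OSW. ENSCAFG00000010438 had a mean of 72.1 ± 8.78 CPM (SD, n = 4) in OSW and lay between 20.6 and 27.5 CPM in CLBL (log2 fold-change 1.55 ± 0.11 SE, adjusted p = 3.70e-10 by edgeR). Genes listed for the negative regulation of viral genome replication were called 3 times in OSW and 1 time in CLBL among 15 tested (median -0.14), a share of 26.7% near the background of 25.1%.

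Other immune lists were also called in both directions. Of all genes tested 25.1% were called, but the listed genes were selected by the study's calls, so larger shares here are no separate evidence. Of 20 cell adhesion molecule genes, 9 were higher in CLBL and 4 in OSW (median -2.47), and of 16 genes listed for interleukin-12 production, a cytokine that links innate cells to T cells, 9 were higher in CLBL and 3 in OSW (median -1.56). Leukocyte chemotaxis had 6 genes higher in CLBL and 1 in OSW of 14 (median -1.57), and the NF-kappa B pathway, a transcriptional route downstream of antigen and cytokine receptors, had 8 and 5 of 18 (median -0.57). Myeloid leukocyte activation had 9 genes higher in OSW and 4 in CLBL of 20 (median 1.48), and the regulation of interferon-gamma production 5 and 4 of 16 (median 0.04). In the NF-kappa B list ENSCAFG00000017669 lay between 129 and 193 CPM in CLBL and between 0.987 and 2.89 CPM in OSW. ENSCAFG00000018627 lay between 72.2 and 95.2 CPM in OSW and had 1 count in CLBL, a ratio of 2351 with a 95% counting interval from 422 to 92850.

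Among non-coding genes, 68 of the 97 lncRNAs that the study had called against controls were tested, of which 14 were higher in OSW and 5 in CLBL (27.9%, median -0.00), a share near the 25.1% of all genes tested. The 5 lncRNAs that the study singled out for OSW were all higher in OSW, and they were chosen for that pattern on these samples. ENSCAFG00000040754 was measured at 29.6, 32.9, 26.3 and 31.3 CPM in OSW and had 0 counts in CLBL, at least 287-fold above the level of 3 counts over the group. ENSCAFG00000033802, ENSCAFG00000038492 and ENSCAFG00000038320, with 0 counts in CLBL, were at least 176-fold, 166-fold and 129-fold higher in OSW by the same measure. With all 37 samples in 1 model the second and the third missed the threshold (adjusted p = 2.62e-05 and 4.39e-05 by edgeR). ENSCAFG00000035265 had 2 counts in CLBL, a ratio of 240 with a 95% counting interval from 66.6 to 1985. In the opposite direction the lncRNA ENSCAFG00000032828 had 0 counts in OSW and lay between 58.8 and 133 CPM in CLBL, at least 374-fold above the OSW level of 3 counts.

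None of the 9 miRNA genes that the study had called against controls was called here by edgeR or DESeq2 at 1e-05, and 3 were lower in OSW at an unadjusted p under 0.05. Their median log2 fold-change was -0.34. ENSCAFG00000020626 was measured at 13.4, 13.4, 8.56 and 15.5 CPM in OSW and between 13.0 and 80.2 CPM in CLBL (median 32.5, adjusted p = 0.00305 by edgeR). The groups overlapped, and the 3 CLBL samples that stood apart were its highest at 56.2 to 80.2 CPM. Poly-A libraries read miRNA genes through their precursor transcripts, not as mature miRNAs.

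A set of genes was silent in 1 line and expressed in the other. There were 217 genes with a mean of at least 10 CPM in OSW and 0 counts in all 10 CLBL samples, and 45 with a mean of at least 10 CPM in CLBL and 0 counts in all 4 OSW samples. The 2 numbers ask for 0 counts in unequal numbers of libraries, and for any 4 of the 10 CLBL samples the first rose to between 308 and 368 genes. The OSW set reached 238 CPM at most (median 21.3 CPM) and made up 0.757% of the OSW gene counts, and 47 of its genes had a mean of at least 50 CPM. The CLBL set made up 0.149% of the CLBL counts, with 9 genes at a mean of at least 50 CPM.

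Most of the genes silent in CLBL were read elsewhere in the series. Of the 217 genes, 131 had at least 3 counts in each of the 4 control nodes, 62 in each of the 4 intestinal and T-cell lymphomas and 39 in each of the 12 B-cell lymphomas. Both CL-1 samples had at least 3 counts for 81 of them and GL-1 for 72, while 16 reached 3 counts in none of the 23 other samples. Of the 45 genes silent in OSW, 33 were read in all control nodes, 29 in all B-cell lymphomas, 18 in both CL-1 samples and 16 in GL-1, and 1 in none of the other samples.

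Primary lymphomas, which share no sample with the lines, were used to see how the called genes stood elsewhere. The 4 lymphomas labelled intestinal or T-cell (3 and 1) were set beside the 12 B-cell lymphomas on the scale of log2 (CPM + 1), without a test, and 3 of the 4 were placed among T-cell tumours by the study from their expression. Of the genes higher in OSW, 74.9% had a higher mean in the intestinal and T-cell lymphomas (median difference 0.54), and of those higher in CLBL 22.3% did (median -0.60), beside 50.2% (median 0.00) of all genes tested. All 4 tumours lay above all 12 B-cell lymphomas for 6.53% of the genes higher in OSW, against 1.96% of all genes tested. They lay below all 12 for 14.5% of the genes higher in CLBL, against 2.40% of all genes tested. Tissue of origin and lymphocyte type cannot be told apart in these tumours.

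**Figure D4:**
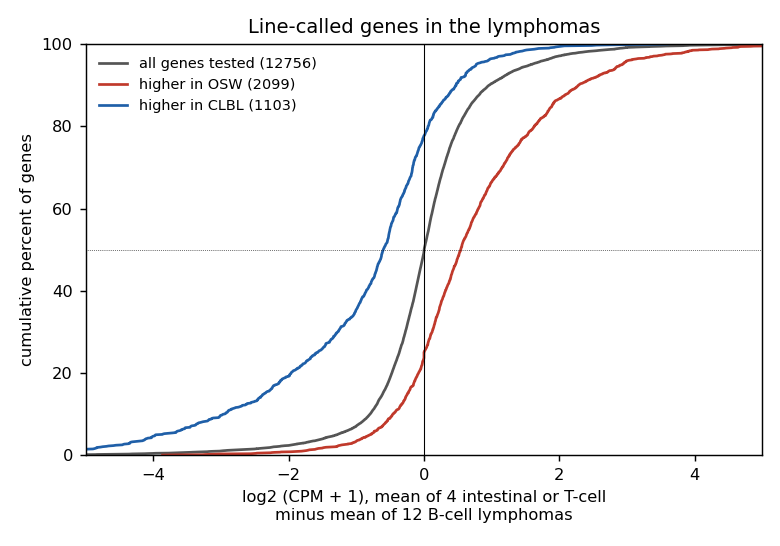
Curves give the cumulative percent of genes (y axis) by their difference between the mean of the 4 intestinal or T-cell lymphomas and the mean of the 12 B-cell lymphomas in log2 (CPM + 1) (x axis, cut at 5 on either side). Genes called higher in OSW (red, 2099) lie to the right of all tested genes (grey, 12756) and those called higher in CLBL (blue, 1103) to the left, with medians of 0.54 and -0.60.

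The other pair of lines did not repeat this order. CL-1, also T-cell derived, lay above GL-1, also B-cell derived, for 40.8% of the genes higher in OSW and for 44.8% of those higher in CLBL, beside 47.0% of all genes tested. Genes at equal levels in both were not counted as above. The median log2 difference of CL-1 from GL-1 was 0 for the genes higher in OSW and -0.04 for those higher in CLBL. Both CL-1 samples were at least 2-fold above GL-1 for 20.5% of the genes higher in OSW (12.3% of all genes tested) and at least 2-fold below it for 25.8% (15.8% of all). For the genes higher in CLBL the shares were 17.5% and 24.9%. GL-1 is a single sample, so these values have no replicate check.

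For the 4 genes with the largest differences, the lymphomas and lines gave separate pictures. ENSCAFG00000001296 lay between 119 and 850 CPM in the intestinal and T-cell lymphomas and between 1.94 and 26.1 CPM in the B-cell lymphomas, but at no more than 0.282 CPM in CL-1. ENSCAFG00000002142 lay between 7.85 and 355 CPM in the intestinal and T-cell lymphomas and at no more than 3.18 CPM in the B-cell lymphomas, and at no more than 0.564 CPM in CL-1. ENSCAFG00000008234 lay between 7.80 and 419 CPM in the B-cell lymphomas and between 10.2 and 58.1 CPM in the others, with 0 counts in GL-1. ENSCAFG00000029396 overlapped, at 0.447 to 29.1 CPM in the B-cell lymphomas and 0.462 to 10.4 CPM in the others.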

How the data were processed

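Poly-A libraries of the 14 cell line samples were read as 100-bp pairs. The authors aligned them to CanFam3.1 (BWA), filtered duplicate and poorly mapped reads (Picard, SAMtools) and tallied the rest over Ensembl 85 genes (HTSeq 0.6.1). The deposited files hold these raw counts, not normalized. The strand setting is not given in the sources used here, so reads of a gene and an antisense partner cannot be told apart. Reads assigned to no gene (68.0 to 73.8%) and reads on more than 1 gene (0.363 to 0.549%) were left out. These shares are of the reads counted to a gene, to no gene or to more than 1 gene.

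Of 32704 genes, 21266 had a count in the 14 samples, and 12756 whose highest CPM over samples exceeded the 40th percentile (4.17 CPM) were tested. In R 4.3.3, edgeR 4.0.16 (TMM, quasi-likelihood F test, 2 groups) compared OSW with CLBL, with Benjamini-Hochberg adjustment and the study's threshold of 1e-05. Each SE was obtained from the log2 fold-change and its F statistic. CPM use TMM library sizes. A fold against 0 counts was computed against 3 counts over the group, and counting intervals are exact Poisson intervals at 95%, covering counting error only. The model was tested on simulated counts. DESeq2 1.42.0, other filters and scalings, other sample sets, a replicate block and left-out replicates were the alternatives.

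The named genes were the 2 per direction with the largest fold-change among called genes whose groups did not overlap and whose mean reached 50 CPM in the higher group. Other identifiers were named where the study gives a list or symbol, after their values were seen, and marker lists by symbol were not used. The members and lists were chosen with earlier results of these data known. Listed genes that were not tested (112) stayed at or below 4.13 CPM in every sample.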

Additional observations from a re-analysis of the deposited data

Results flagged for a closer look

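Among 96 sets of a named gene and a group (4 OSW or 10 CLBL samples, over 10 counts in the group), 9 had 1 sample far from the others by Dixon's criterion, which chance alone meets in about 1 of 20 sets. In OSW, replicate 2 was low for ENSCAFG00000018101 at 2.17 CPM (next 3.12), and replicate 3 was low for ENSCAFG00000005419 at 180.0 CPM (next 220) and for ENSCAFG00000000517 at 11.5 CPM (next 19.3). OSW replicate 4 was low for ENSCAFG00000031460 at 6.77 CPM (next 9.54), and replicate 1 for the lncRNA ENSCAFG00000038320 at 8.74 CPM (next 14.5). In CLBL, CLBL-1M replicate 2, 1 of the 3 samples that stood apart, was high for the class II genes ENSCAFG00000000814 at 621 CPM (next 439) and ENSCAFG00000000819 at 277 CPM (next 197). CLBL-1 replicate 2 was high for ENSCAFG00000016686 at 10.1 CPM (next 2.46), and CLBL-1M replicate 3 for ENSCAFG00000019798 at 115.0 CPM (next 74.2). None of these samples reached the range of the other group.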

How the results depend on the processing

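With DESeq2, 2745 genes were higher in OSW and 1728 in CLBL. With all 37 samples in 1 model, 1389 genes were higher in OSW and 621 in CLBL. Against the 5 samples titled CLBL-1M only, the counts were 1398 and 666, and against the 5 titled CLBL-1 only 1485 and 835. At an adjusted p of at most 0.05 the counts were 4262 and 3567. With 2 OSW samples, chosen after seeing the data, replicates 1 and 3 gave 1288 and 546, and replicates 2 and 4 gave 1505 and 542. Of these 542 genes higher in CLBL, 411 differed by 4-fold or more. The cause was not tested. Leaving out 1 replicate gave 1709 to 2120 genes higher in OSW and 815 to 1093 in CLBL (4-fold: 1336 to 1503 and 540 to 645). Same-numbered samples of OSW and CLBL-1 deviated with correlations of -0.07 to -0.01, and of OSW and CLBL-1M with -0.17 to 0.14. These values show no pairing by number, but 4 pairs in each comparison are too few to exclude it. A replicate block gave 1528 and 836 genes (4-fold: 1201 and 567), and under it ENSCAFG00000005419, ENSCAFG00000032222 and ENSCAFG00000038320 missed the threshold (adjusted p = 1.13e-05, 1.49e-05 and 1.47e-05). RLE size factors gave 2121 and 1072. No named gene reversed. All 9 class II genes stayed higher in CLBL and no DNA replication initiation gene was called in the 27 other settings at 1e-05. With all 37 samples, 9 named genes missed the threshold, among them ENSCAFG00000038320 and ENSCAFG00000038492.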
